A study of Mus musculus with 24 samples.

Results

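The acyltransferases of hepatic triglyceride synthesis were examined as a family of 9 genes, chosen as the enzymes that attach fatty acyl chains to the glycerol backbone: Gpam, Gpat3 and Gpat4 for the first chain, Agpat1, Agpat2, Agpat3 and Agpat5 for the second, and Dgat1 and Dgat2 for the third. They were 9 of 41388 genes counted, and all 9 were among the 13052 genes that were abundant enough to be tested. Livers came from male mice on a C57BL/6J background, with 5 mice in each of 4 groups: WT on an LFD, Adn-Lpin1-/- on an LFD, WT on an HFD and Adn-Lpin1-/- on an HFD. WT mice were littermates that carried floxed Lpin1 without Cre, and Adn-Lpin1-/- mice carried the same floxed alleles with Cre under the adiponectin promoter, so that Lpin1 was deleted in adipocytes and not in liver cells. Feeding of an LFD (10% of energy as fat) or an HFD (60%) started at 8 weeks of age, and the mice were fasted for 4 hours before the liver was taken. The sample labels give 16 weeks of diet and the study's methods give 5 weeks. Whole-liver mRNA was sequenced, and each WT LFD mouse had 36260187 to 45999456 reads counted on genes, each Adn-Lpin1-/- LFD mouse 51095146 to 61435897, each WT HFD mouse 54036184 to 62249701 and each Adn-Lpin1-/- HFD mouse 57550362 to 81072794.

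Triglyceride is built by the glycerol-3-phosphate pathway. A GPAT enzyme acylates glycerol-3-phosphate to lysophosphatidic acid, an AGPAT enzyme acylates that to phosphatidic acid, a lipin removes the phosphate to give diacylglycerol, and a DGAT enzyme adds the last chain. In hepatocytes the product is stored in lipid droplets or exported in VLDL, and phosphatidic acid and diacylglycerol are also precursors of phospholipids.

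By the exon positions deposited with the counts, on GRCm38, Agpat1 lies on chromosome 17 from 34604262 to 34613449 (plus strand), Agpat2 on chromosome 2 from 26593057 to 26604417 (minus strand), Dgat1 on chromosome 15 from 76502015 to 76511951 (minus strand) and Dgat2 on chromosome 7 from 99153663 to 99182713 (minus strand). The counts cover the exons of each gene.

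Because Agpat1 and Agpat2 are the family members that differed by genotype on the HFD, the bases just upstream of their RefSeq starts are shown. RefSeq promoter sequences on GRCm38.p6 were matched for 5 of the 9 genes, Gpam, Gpat3, Agpat1, Agpat2 and Agpat3. RefSeq gives Agpat1 a pair of starts, and the upstream one is shown. The 250 bases before it are at chr17:34605611-34605860 on the plus strand, inside the annotated gene but outside its annotated exons, and the 250 bases before the start of Agpat2 are at chr2:26604418-26604667, read on the minus strand. Capitals mark GGGCGG (the GC box) and CCAAT (the CCAAT box), searched on both strands, with overlapping matches both marked.
Agpat1: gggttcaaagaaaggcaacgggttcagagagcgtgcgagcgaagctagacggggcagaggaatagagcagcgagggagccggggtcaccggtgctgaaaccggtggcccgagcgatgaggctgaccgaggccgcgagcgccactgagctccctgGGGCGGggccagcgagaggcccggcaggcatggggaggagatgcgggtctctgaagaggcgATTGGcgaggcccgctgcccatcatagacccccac
Agpat2: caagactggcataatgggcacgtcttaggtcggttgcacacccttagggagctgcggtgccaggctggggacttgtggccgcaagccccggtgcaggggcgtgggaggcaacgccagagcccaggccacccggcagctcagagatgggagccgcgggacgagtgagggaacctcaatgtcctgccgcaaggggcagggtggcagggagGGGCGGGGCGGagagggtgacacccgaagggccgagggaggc
The Agpat1 window held 1 GC box and 1 CCAAT box, and the Agpat2 window held 2 overlapping GC boxes and no CCAAT box. The window before the other Agpat1 start, at chr17:34608764-34609013, held 1 GC box and no CCAAT box. A GC box was present in 32.7% and a CCAAT box in 33.8% of all 32851 promoter windows of this length. Neither window held the E-box CACGTG or the sterol regulatory element TCACNCCAC, both also searched on both strands, which 6.02% and 1.05% of all windows held. These matches describe letters only.

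The liver expressed 1 or 2 dominant genes at each step. Scaled for gene length, the mean RPKM (reads scaled by gene length and library total) over the 20 mice was 317 for Dgat2, 113 for Agpat2, 63.3 for Gpat4, 41.4 for Agpat3, 29.0 for Gpam, 8.00 for Dgat1, 6.67 for Agpat1, 2.65 for Gpat3 and 0.706 for Agpat5. Every mouse had more RPKM of Dgat2 (263 to 358) than any mouse had of another family member. The ranges of some neighbours overlapped: Agpat2 (81.3 to 167) with Gpat4 (40.0 to 86.8), Gpat4 with Agpat3 (33.6 to 51.3), Agpat3 with Gpam (13.1 to 54.1), Dgat1 (6.43 to 10.3) with Agpat1 (4.58 to 8.82), Agpat1 with Gpat3 (0.714 to 5.398), and Gpat3 with Agpat5 (0.597 to 0.832). The plot of RPKM by step shows that, by group mean, each step kept its leading gene in all 4 groups. In WT LFD mouse 5, Gpam (40.10 RPKM) was slightly above Gpat4 (39.97 RPKM).

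**Figure D1:**
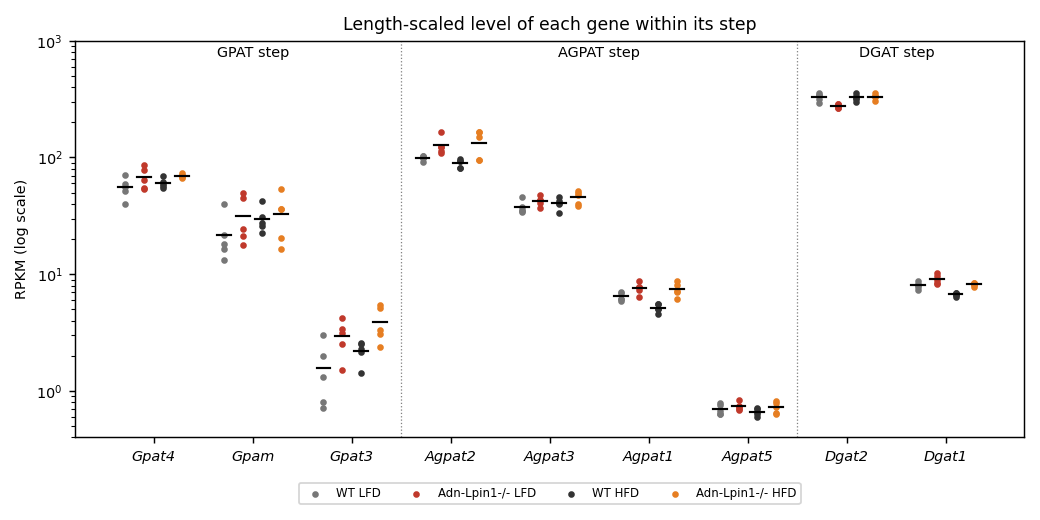
RPKM (y axis, log scale) of the 9 genes, ordered by level within the GPAT, AGPAT and DGAT steps; points are single mice and bars are means of 5 mice, by group. By group mean, Dgat2, Agpat2 and Gpat4 led their steps, with Dgat2 between 263 and 358 RPKM in the 20 mice.

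Within the steps, shares of RPKM described the same order. In WT LFD, Gpat4 made up 70.5% ± 13.1 (SD, n = 5) of the GPAT step, Agpat2 69.0% ± 2.75 of the AGPAT step and Dgat2 97.6% ± 0.183 of the DGAT step. Gpam, the mitochondrial GPAT, made up 27.5% ± 12.4 of its step in that group, and Agpat3 26.0% ± 2.73 of its own. The ratio of Dgat2 to Dgat1 RPKM was 41.4 ± 3.08 in WT and 30.6 ± 2.61 in Adn-Lpin1-/- mice on the LFD, and 48.7 ± 3.48 in WT and 40.8 ± 3.04 in Adn-Lpin1-/- mice on the HFD. On the LFD, the ratios of the knockout mice (27.03 to 34.2) lay below those of the WT mice (36.4 to 44.3).

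Lpin1, the gene deleted in adipocytes, was also examined in the liver, where the deletion was not directed. Its CPM (counts scaled to a common library total, after TMM scaling) ranged from 142 to 673 in WT and 322 to 1195 in Adn-Lpin1-/- mice on the LFD, and from 137 to 556 in WT and 120 to 580 in Adn-Lpin1-/- mice on the HFD, so the genotypes overlapped on both diets. These liver values do not check the adipocyte deletion. Hepatocyte markers were abundant in all mice, and Alb, the most abundant of the 8, was between 55514 and 87678 CPM. A pair of libraries stood apart in Adipoq, the adipocyte gene of adiponectin, which was 4.32 CPM in WT LFD mouse 1, 0.746 in WT HFD mouse 2 and at most 0.154 in the other mice.

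On the LFD, the genotype comparison asked whether adipocyte loss of Lpin1 went with a change in these liver genes. Dgat2, the enzyme that acylates diacylglycerol formed largely from newly made fatty acids, was lower in Adn-Lpin1-/- mice. Its CPM was 749, 683, 833, 850 and 812 in WT mice 1 to 5, and 627, 591, 638, 645 and 570 in Adn-Lpin1-/- mice 1 to 5. All 5 knockout mice were below all 5 WT mice. The log2 fold change was -0.35, a fold of 0.782 (95% interval 0.707 to 0.866, edgeR quasi-likelihood adjusted p = 0.00242). WT LFD libraries were the shallowest, and with the counts of all libraries thinned to the smallest total Dgat2 had a log2 fold change of -0.35 (edgeR adjusted p = 0.00251). Dgat2 was the 1 of 9 family members called on the LFD, 11.1% of the family, beside 14.4% of all tested genes called, and 8.11% called lower. Of all tested genes, 6.21% had every knockout mouse below every WT mouse.

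The other 8 genes were not called on the LFD by edgeR with all mice. Gpat3, a GPAT of the endoplasmic reticulum, had 2.96, 2.59, 5.00, 7.40 and 11.04 CPM in WT mice and 5.28, 11.7, 8.64, 14.7 and 10.5 CPM in Adn-Lpin1-/- mice. The groups overlapped, with mouse 5 of WT above 3 of the knockout mice, and the log2 fold change was 0.81 (edgeR adjusted p = 0.114). Gpat3 was called higher by voom (1.101, limma adjusted p = 0.0316), and without WT LFD mouse 5 (1.18, edgeR adjusted p = 0.0180). Agpat2 was 229, 228, 230, 206 and 220 CPM in WT mice and 265, 228, 256, 240 and 342 CPM in Adn-Lpin1-/- mice. Knockout mouse 2 was within the WT range and the other 4 were above it, with mouse 5 the highest, and the log2 fold change was 0.26 (edgeR adjusted p = 0.223). Dgat1 was 31.5, 26.7, 25.3, 29.1 and 24.4 CPM in Adn-Lpin1-/- LFD mice, which overlapped the WT values of 23.3 to 28.2.

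Gpam, the GPAT of the outer mitochondrial membrane and a known SREBP-1c target, was, with Gpat3, the most variable of the 9 genes within groups. It was 65.1, 86.4, 74.9, 53.4 and 160 CPM in WT mice and 68.2, 189, 80.4, 93.1 and 166 CPM in Adn-Lpin1-/- mice on the LFD. WT mouse 5 and knockout mice 2 and 5 were high, and the groups overlapped. Gpam had a log2 fold change of 0.44, with a 95% interval of the fold from 0.838 to 2.19. The log2 fold change was 0.21 without Adn-Lpin1-/- LFD mouse 2 and 0.77 without WT LFD mouse 5, called in neither case (edgeR adjusted p = 0.741 and 0.111). Agpat3 and Agpat5 had narrower intervals of the fold, from 0.923 to 1.21 and from 0.869 to 1.13. Agpat3, an AGPAT of the endoplasmic reticulum and Golgi, lay between 268 and 361 CPM in WT and between 282 and 356 CPM in Adn-Lpin1-/- mice, Agpat5, a mitochondrial AGPAT, between 7.15 and 9.17 and between 7.18 and 8.78, and Gpat4 between 164 and 303 and between 205 and 341.

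On the HFD, Agpat1 and Agpat2, the enzymes that form phosphatidic acid in the endoplasmic reticulum, were higher in Adn-Lpin1-/- mice. Agpat1 was 15.8, 15.4, 17.01, 17.3 and 14.7 CPM in WT mice 1 to 5 and 19.4, 24.6, 17.6, 21.9 and 22.9 CPM in Adn-Lpin1-/- mice. All knockout mice were above all WT mice, although mouse 3 of the knockouts, at 17.6, was close to mouse 4 of WT, at 17.3. The log2 fold change was 0.41, a fold of 1.33 (95% interval 1.16 to 1.52, edgeR adjusted p = 0.00678). With each library's trend with the GC content of genes removed it was 0.26 and no longer called (edgeR adjusted p = 0.0592).

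Agpat2, the gene mutated in a congenital lipodystrophy, was 181, 201, 206, 216 and 185 CPM in WT HFD mice 1 to 5 and 326, 294, 338, 204 and 189 CPM in Adn-Lpin1-/- HFD mice. Knockout mice 1 to 3 were above every WT mouse, and mice 4 and 5 were within the WT range. The log2 fold change was 0.45, a fold of 1.37 (95% interval 1.12 to 1.67, edgeR adjusted p = 0.0290), and an exact permutation test of the 5 mice against 5 gave a two-sided p of 0.0873. The call rested on single mice: without WT HFD mouse 1, 2 or 5, or Adn-Lpin1-/- HFD mouse 1, 2 or 3, the edgeR adjusted p was above 0.05 and reached 0.0839. It was also lost in a fit of the HFD groups alone (edgeR adjusted p = 0.0733) and with the GC trend removed (log2 fold change 0.30, edgeR adjusted p = 0.133).

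The 2 of 9 called genes were 22.2% of the family, beside 18.6% of all tested genes called and 9.87% called higher on the HFD. Of all tested genes, 5.78% had every knockout mouse above every WT mouse on this diet. Dgat2 was 836, 721, 752, 785 and 720 CPM in WT HFD and 743, 701, 715, 759 and 642 CPM in Adn-Lpin1-/- HFD, which overlapped (log2 fold change -0.10, edgeR adjusted p = 0.341). With the GC trend removed Dgat2 was called lower on the HFD too (log2 fold change -0.22, edgeR adjusted p = 0.0343), as it was by voom with the pools (-0.13, limma adjusted p = 0.0445). Dgat1, the other DGAT, was 21.9, 20.7, 20.2, 20.98 and 22.6 CPM in WT HFD and 22.5, 23.4, 24.4, 24.4 and 23.9 CPM in Adn-Lpin1-/- HFD. Only mouse 1 of the knockouts fell inside the WT range for Dgat1, and the log2 fold change was 0.16 (edgeR adjusted p = 0.115). Gpat3 was 9.48, 7.64, 9.01, 8.26 and 5.27 CPM in WT HFD and 17.4, 16.8, 8.00, 11.7 and 10.2 CPM in Adn-Lpin1-/- HFD (log2 fold change 0.69, edgeR adjusted p = 0.148). Voom with the pools called Gpat3 higher (0.695, limma adjusted p = 0.00854). Knockout mice 1, 2, 4 and 5 were above every WT mouse for Gpat3, and mouse 3 was not.

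Gpam on the HFD was 104, 106, 123, 167 and 92.8 CPM in WT mice and 191, 128, 131, 79.7 and 58.9 CPM in Adn-Lpin1-/- mice. The knockout mice held both the highest and the lowest values, and the fold was 0.993 with a 95% interval from 0.615 to 1.60. Gpat4, Agpat3 and Agpat5 had folds of 1.06 (0.862 to 1.30), 1.03 (0.897 to 1.18) and 1.00 (0.880 to 1.14).

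**Figure D2:**
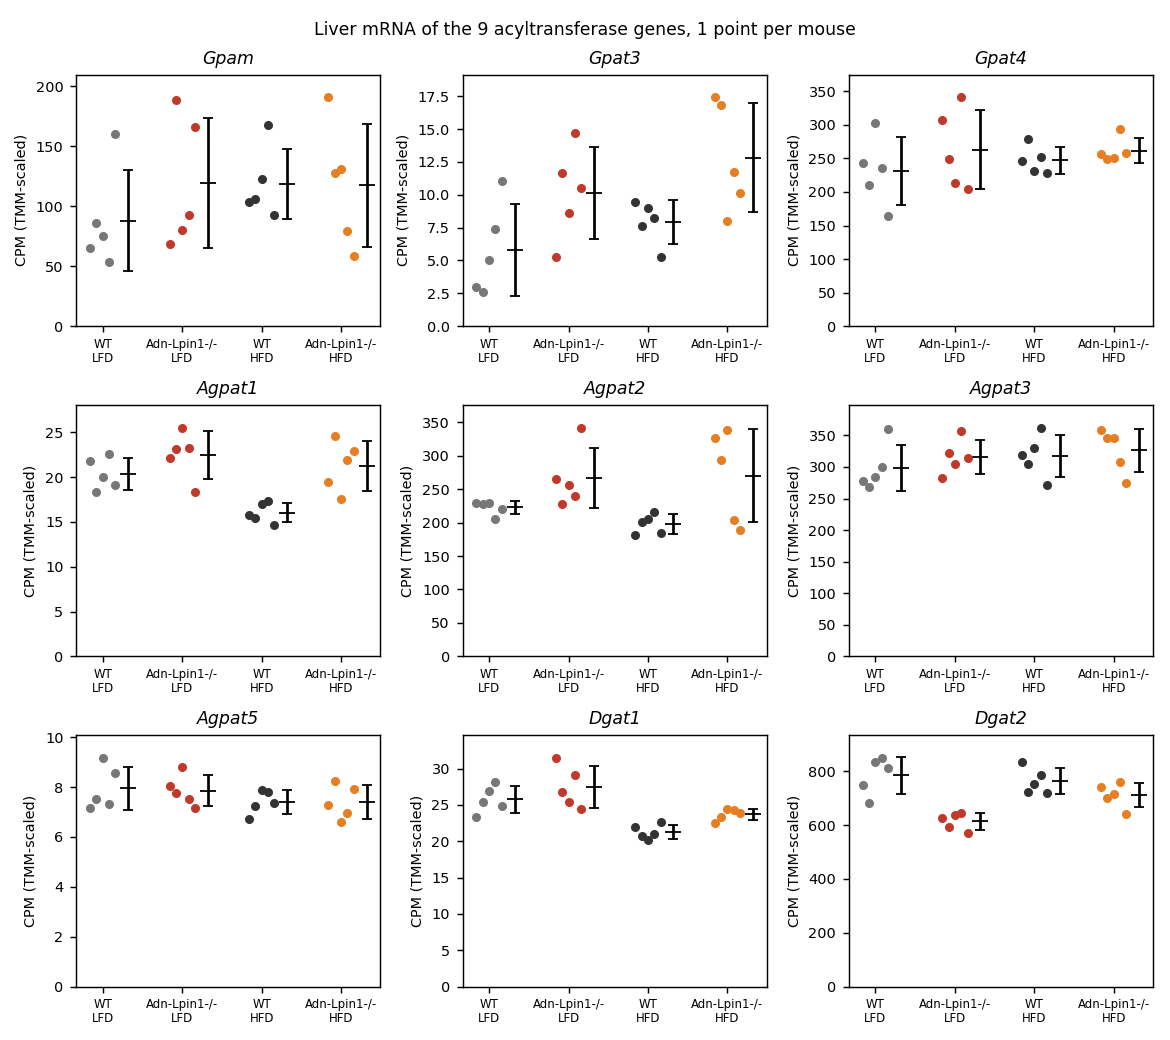
CPM after TMM scaling (y axis, from 0) of each of the 9 genes in the 4 groups; points are single mice in order of mouse number, and bars beside them are mean ± SD of 5 mice. Dgat2 of Adn-Lpin1-/- LFD mice (570 to 645) lay below all WT LFD mice, and Agpat2 of Adn-Lpin1-/- HFD mice split into 3 high and 2 low values.

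Whether genotype acted differently on each diet was tested as an interaction, and no gene was called, in the family or among all tested genes (percentage called 0.0). Of all genes, 938 (7.19%) had an unadjusted edgeR p under 0.05, DESeq2's Wald test called 30 and voom 0. In the family, Dgat2 had an interaction of 0.26 on the log2 scale (edgeR adjusted p = 0.603), and Agpat1 had 0.26 (edgeR adjusted p = 0.726). The calls on 1 diet therefore did not show that the genotype effect differed between the diets.

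Diet was compared within each genotype, and these comparisons share mice with the genotype comparisons. In WT mice, Agpat1 and Dgat1 were lower on the HFD in every mouse than in any mouse on the LFD, although neither passed the adjusted threshold. Agpat1 was 21.7, 18.4, 19.98, 22.5 and 19.1 CPM in WT LFD mice, with the WT HFD values of 14.7 to 17.3 below all of them (log2 fold change -0.34, edgeR adjusted p = 0.0829). Dgat1 was 23.3, 25.4, 26.9, 28.2 and 24.9 CPM in WT LFD mice, with the WT HFD values of 20.2 to 22.6 below all of them (log2 fold change -0.28, edgeR adjusted p = 0.0562). An exact two-sided permutation test gave 0.00794 for each, the smallest that 5 mice against 5 allow, and 0.0714 after adjustment over the 36 tests of 9 genes in 4 comparisons. DESeq2's Wald test and voom each called both genes. The WT HFD mice low in Agpat1 here are the same mice that served as controls in the genotype comparison on the HFD.

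In WT mice, 0 of 9 genes were called by edgeR, beside 1.1% of all tested genes, and 2 were at an unadjusted p under 0.05, beside 15.8%, and 2.11% of tested genes had every HFD mouse below every LFD mouse. In Adn-Lpin1-/- mice, 0 of 9 were called by edgeR, beside 2.46% of all tested genes, and 2 were at an unadjusted p under 0.05, beside 16.1%. Those were Dgat1, with a log2 fold change of -0.21 (edgeR adjusted p = 0.118), and Dgat2, with 0.21 (edgeR adjusted p = 0.120). DESeq2's Wald test and voom called neither.

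**Figure D3:**
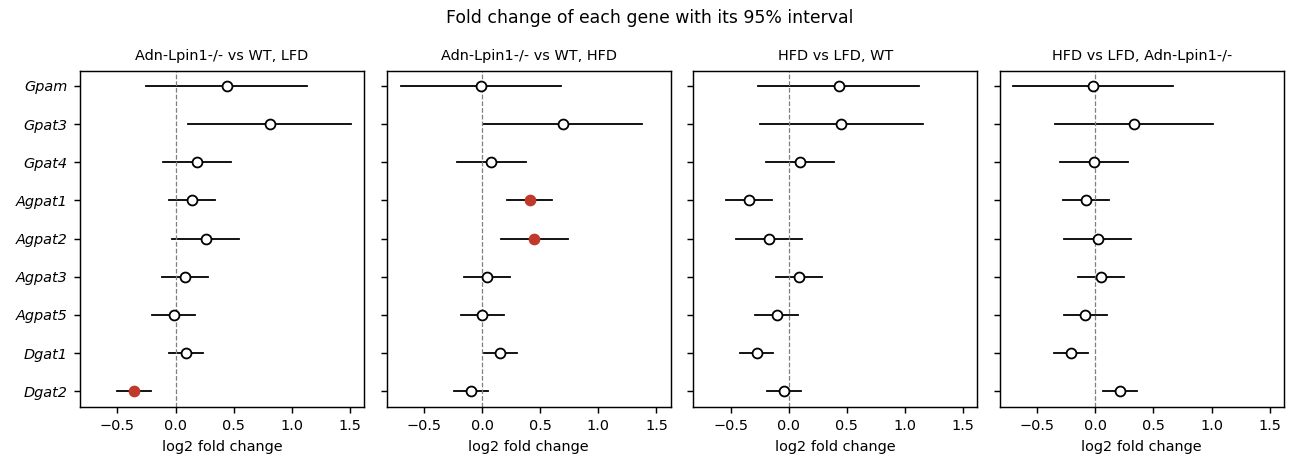
Log2 fold change of each gene (x axis) with its 95% interval from edgeR in the 4 comparisons; filled points passed an adjusted p of 0.05. Dgat2 on the LFD (-0.35) and Agpat1 (0.41) and Agpat2 (0.45) on the HFD were filled.

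The genes differed in how far mice of 1 group lay from each other. The SD of log2 CPM within groups was 0.60 for Gpat3 and 0.58 for Gpam, against 0.10 for Dgat1 and 0.10 for Dgat2. Gpat3 varied 6.73-fold and Gpam 3.58-fold from the lowest to the highest mouse, so the intervals of these genes were wide. The differences between groups made up 70.0% of the variance of Dgat2, 69.5% of that of Dgat1 and 64.2% of that of Agpat1, and 12.8% of that of Gpam. Such a share is above 0 even where groups do not differ, and that baseline was not computed.

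Across the 20 mice, some family members moved together. Of 36 pairs, Gpat3 with Agpat3 had Pearson's r = 0.74 and Spearman's rho = 0.70 (permutation p = 0.00015 and 0.00092, adjusted p = 0.0054 and 0.0166), and r was 0.75 after group means were taken out (adjusted permutation p = 0.0101). Gpam with Agpat3 had r = 0.73 and rho = 0.77 (permutation p = 0.00038 and 0.00014, adjusted p = 0.00684 and 0.00504), and r = 0.71 within groups (adjusted permutation p = 0.0351). Without the 2 mice farthest from the median of the first-named gene of each pair, Gpat3 and Gpam, r was 0.67 and 0.72. Agpat1 with Dgat1 had r = 0.61 and rho = 0.62 (permutation p = 0.0040 and 0.00429, adjusted p = 0.0480 and 0.0515), r without the 2 farthest mice was 0.64, and r was 0.07 within groups, so this relation did not hold within groups.

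**Figure D4:**
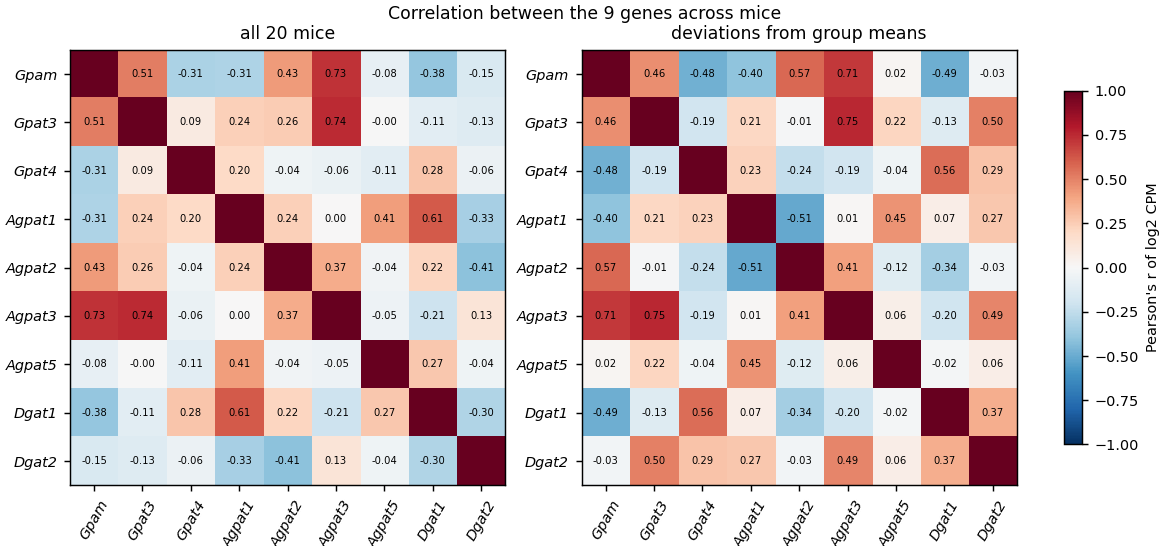
Pearson's r of log2 CPM between each pair of genes (color and number), over all 20 mice at left and over deviations from group means at right. Agpat3 with Gpat3 and Gpam stayed above 0.70 in both, and Agpat1 with Dgat1 fell from 0.61 to 0.07.

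For each family member other than Dgat2, the 3 tested genes with the highest Pearson's r across the same 20 mice were listed as a description. These were Etfdh (r = 0.92), Decr1 (0.91) and Arfgef2 (0.89) for Agpat3, and Pcyox1 (0.91), Iars2 (0.89) and Itgb5 (0.88) for Gpam. Agpat2 was nearest to Lhx6 (0.87), Mlec (0.85) and Eno1 (0.84). Agpat1 was nearest to Camta2 (0.88), Capn15 (0.87) and Abcc10 (0.86), Dgat1 to Mroh6 (0.89), Ppme1 (0.86) and Kmt2d (0.86), Gpat3 to Wipf3 (0.89), Unc5b (0.86) and Pigq (0.86), Gpat4 to 4732465J04Rik (0.82), Fam107a (0.80) and Dnajc27 (0.79), and Agpat5 to Lrpap1 (0.73), Slc22a21 (0.71) and Fam120b (0.70).

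The other acyltransferases were read without Mogat1 and Lpcat4, which passed the limit on low counts, over 1 CPM in 4 libraries before TMM scaling, through the knockout mice. Mogat1 was over it in 9 of 10 knockout and 1 of 10 WT mice, and Lpcat4 in 4 and 0 of 10. Of the remaining 10, edgeR called 1 higher and 1 lower on the LFD, beside 14.4% of all tested genes called, with Agpat4 higher (log2 fold change 0.66) and Lpgat1 lower (-0.38). On the HFD, 2 were higher and 1 lower, beside 18.6% of all tested genes called, with Lpcat2 (1.01) and Gpat2 (0.58) higher and Lpgat1 lower (-0.48). The median log2 fold change of these 10 was 0.12 (LFD) and -0.02 (HFD), against 0.01 and 0.00 over all tested genes. For the 9 family members it was 0.14 and 0.08. Mogat1, which makes diacylglycerol from monoacylglycerol outside the glycerol-3-phosphate pathway, was 0.515 ± 0.527 CPM (SD, n = 5) in WT LFD and 2.87 ± 1.26 in Adn-Lpin1-/- LFD mice, given as a description with no test. On the HFD it was 0.541 ± 0.304 CPM in WT and 3.34 ± 1.90 in Adn-Lpin1-/- mice.

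Around the pathway, the 3 lipins had 0 calls on either diet by edgeR, with 2 at an unadjusted p under 0.05 on the LFD and 1 on the HFD, beside 28.9% and 33.2% of all tested genes. Of 11 tested genes of glycerol-3-phosphate and acyl-CoA supply, Slc27a5, a bile acid and very long chain acyl-CoA synthetase, was lower on the LFD (log2 fold change -0.41, edgeR adjusted p = 0.0004). It was the 1 call, 9.09% of this list, beside 14.4% of all tested genes called, and 8.11% called lower. On the HFD, Gpd1, which makes glycerol-3-phosphate, was higher (0.45), and Slc27a5 (-0.24) and Acsl4 (-0.70) were lower. Together they were 27.3% of this list, beside 18.6% of all tested genes called. Of 18 tested genes of the phospholipid branch, Chkb and Pisd were higher on the LFD, and Chkb, Cdipt and Pgs1 were higher and Pemt lower on the HFD. These were 11.1% (LFD) and 22.2% (HFD) of the list, beside 14.4% and 18.6% of all tested genes called. Chkb, a choline kinase, was 1.31-fold (LFD) and 1.25-fold (HFD) as high in Adn-Lpin1-/- as in WT mice.

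**Figure D5:**
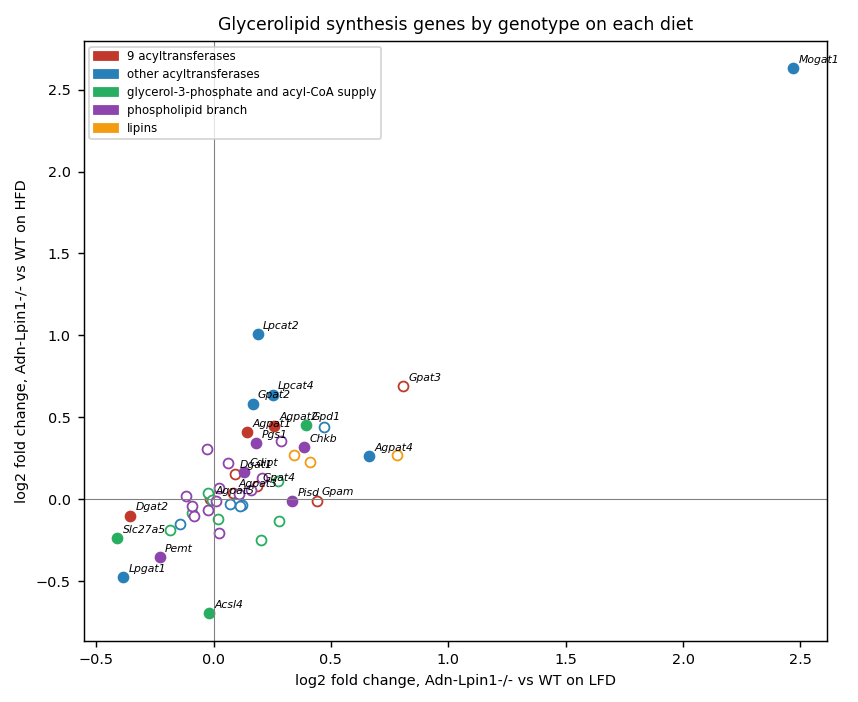
Log2 fold change of Adn-Lpin1-/- against WT on the LFD (x axis) and on the HFD (y axis) for the 9 genes and 4 related lists; filled points were called by edgeR on at least 1 diet, and the 9 genes and called genes are named. Mogat1 and Lpcat4 passed the limit on low counts through the knockout mice, so their fitted fold changes and calls are not read as results.

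The regulators and fatty acid synthesis genes were compared in the same fit. Srebf1 and Mlxipl, which encode SREBP-1 and ChREBP, had an edgeR adjusted p of 0.446 and 0.758 by genotype on the LFD, and of 0.996 and 0.0514 on the HFD. Their folds were 1.17 and 1.05 on the LFD, and 0.999 and 1.29 on the HFD. Of the 13 genes in all, edgeR called 0 on the LFD by genotype, beside 14.4% of all tested genes. An unadjusted p under 0.05 was reached by 2 on the LFD, beside 28.9% of all tested genes. Most of the list leaned higher on the LFD, with 11 of 13 log2 fold changes positive. The median was 0.46, against 0.01 over all tested genes, and Fasn and Acly had folds of 1.80 and 1.56. On the HFD, 6 of 13 were positive, with a median of -0.002. The paper reports that its lipogenic genes, Fasn and Acly among them, peaked in LFD-fed Adn-Lpin1-/- mice. Scap (log2 fold change -0.33) was the 1 called on the HFD, 7.69% of the list, beside 18.6% of all tested genes. By diet, Pnpla3 was lower on the HFD in WT (-2.71) and in Adn-Lpin1-/- mice (-2.36), where Scd1 (-1.64) and Elovl6 (-1.20) were lower too. The diet calls were 7.69% of the list in WT and 23.1% in Adn-Lpin1-/- mice, beside 1.1% and 2.46% of all tested genes. Of 10 genes of the PPARγ and lipid droplet list, 5 were higher on the LFD and 3 on the HFD in Adn-Lpin1-/- mice, beside 6.27% and 9.87% of all tested genes called higher, among them Pparg on the LFD (fold 2.64, edgeR adjusted p = 0.0286) and Cidec on both diets (folds 6.69 and 7.36). Cidea, which passed the limit on low counts through the knockout mice alone, was left out of these counts.

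Cell type markers moved with genotype as well, and in whole liver fewer cells of a type and less RNA per cell cannot be told apart. The 8 hepatocyte markers, led by Alb, summed to 111672 ± 3283 CPM (SD, n = 5) in WT and 95686 ± 10266 in Adn-Lpin1-/- mice on the LFD, and to 114123 ± 10407 in WT and 87886 ± 11117 in Adn-Lpin1-/- mice on the HFD, with 2 of 8 lower on the LFD and 5 of 8 lower on the HFD by edgeR, beside 8.11% and 8.78% of all tested genes called lower. On the HFD, 6 of 8 macrophage, 4 of 8 stellate and 4 of 6 endothelial markers were higher, and on the LFD 0 of 8, 5 of 8 and 3 of 6 were, beside 9.87% (HFD) and 6.27% (LFD) of all tested genes called higher. Macrophage markers, led by Clec4f, summed to 178 ± 44.6 CPM (SD, n = 5) in WT and 210 ± 57.4 in Adn-Lpin1-/- mice on the LFD, and to 169 ± 16.3 and 291 ± 106 on the HFD. For stellate markers, led by Dcn, the sums were 140 ± 32.002 and 247 ± 76.5 CPM on the LFD, and 180 ± 29.6 and 247 ± 82.4 on the HFD. For endothelial markers, led by Stab2, they were 99.5 ± 19.98 and 132 ± 35.2 CPM on the LFD, and 103 ± 16.5 and 151 ± 10.7 on the HFD. The 5 cholangiocyte markers, led by Spp1, summed to 35.9 ± 11.5 and 58.0 ± 19.2 CPM on the LFD and to 30.5 ± 10.1 and 42.0 ± 11.6 on the HFD. Of these, 0 of 4 were called on either diet by edgeR, beside 14.4% (LFD) and 18.6% (HFD) of all tested genes. An unadjusted p under 0.05 was reached by 2 on the LFD and 0 on the HFD, beside 28.9% and 33.2% of all tested genes. Krt7, the fifth, which passed the limit on low counts through the knockout mice, with 6 of 10 of them and 2 of 10 WT mice over it, was left out of these counts. The part of these cells in the results for the 9 genes was not tested.

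Adipocyte RNA was examined by 6 markers, which summed to 12.3 ± 1.75 CPM (SD, n = 5) in WT and 17.3 ± 13.3 in Adn-Lpin1-/- mice on the LFD, and to 13.98 ± 6.29 in WT and 88.8 ± 81.2 in Adn-Lpin1-/- mice on the HFD. Without Cfd, the other 5 summed to 11.4 ± 2.37 CPM (SD, n = 5) in WT and 6.03 ± 2.71 in Adn-Lpin1-/- mice on the LFD, and to 8.15 ± 2.34 and 6.97 ± 1.76 on the HFD. By group mean, Adrb3 was the most abundant in WT and Cfd in Adn-Lpin1-/- mice, though this did not hold in every mouse. Retn was at 0 in all WT LFD mice and Plin1 in all Adn-Lpin1-/- LFD mice. Adrb3 was lower in Adn-Lpin1-/- than in WT mice on the LFD, at 5.89 and 10.5 CPM (log2 fold change -0.83, edgeR adjusted p = 0.0347), and its log2 fold change on the HFD was -0.20 (edgeR adjusted p = 0.621). Plin1, Lep and Retn were at or below 0.116 CPM in every mouse. Without WT LFD mouse 1, Dgat2 on the LFD had a log2 fold change of -0.37 (edgeR adjusted p = 0.00368), and without WT HFD mouse 2, Agpat1 on the HFD had 0.39 (edgeR adjusted p = 0.0188) and Agpat2 0.46 (edgeR adjusted p = 0.0513). Cfd, the gene of adipsin, was higher in Adn-Lpin1-/- mice on both diets (log2 fold changes 3.76 and 3.81, edgeR adjusted p = 0.0376 and 0.0150), and was 146, 183, 68.5, 6.89 and 3.90 CPM in Adn-Lpin1-/- HFD mice 1 to 5, and the same mice 4 and 5 were the low ones for Agpat2, at 204 and 189, for Mogat1, at 0.898 and 1.68, and for Gpam, at 79.7 and 58.9. Agpat3 was also lowest in mice 4 and 5 of this group, at 308 and 275 CPM. Not every member followed this split: in the same group Agpat1 and Gpat3 were lowest in mouse 3, at 17.6 and 8.00 CPM, and Gpat4 was highest in mouse 4, at 294. The part of this split in the Agpat2 result was not tested.

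Reads shared with overlapping genes limit some members, since whether counting used strand is not given in the sources used here. Gpat3 shares 1052 exon bases with the antisense gene 4930458D05Rik, which had a mean of 0.687 CPM, Agpat1 shares 101 with Egfl8 at 0.632 CPM, and Agpat2 shares 64 with Egfl7, an endothelial gene, at 16.7 CPM, each on the opposite strand. P-values here measure the spread among mice of these groups.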

How the data were processed

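Liver mRNA of 20 single mice was analysed, and 4 pooled libraries were kept out of the tests. Per the labels and the study's methods, the authors removed rRNA by poly-A selection, mapped reads to GRCm38 (STAR 2.5.1a) and ran featureCounts 1.4.6-p5 against Ensembl release 76. For every library the authors deposited 41388 genes, each with a raw count, a CPM value and an RPKM value. Tests used the deposited counts, and levels compared between genes used the deposited RPKM.

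Genes annotated as rRNA (355) were removed, and a gene had to exceed 1 CPM in 4 or more of 20 libraries, which left 13052. Testing used edgeR 4.0.16 under R 4.3.3 (TMM, group means in 1 fit, quasi-likelihood test, Benjamini-Hochberg adjustment over all genes, threshold 0.05). Counts per gene ranged down to 115 for Gpat3 in a single library. Single genes were also tested by exact permutation, and pairs with 100000 permutations. Voom of limma 3.58.1, DESeq2 1.42.0, the pools as sixth libraries, other filters and scalings, a GC correction, thinned counts, a replicate block and each mouse left out were alternatives. On simulated data for genotype on the LFD with 13052 genes, edgeR recovered 80 of 100 genes at a log2 fold of 1 and 44 of 100 at 0.5, with 1 false call. DESeq2 recovered 83 and 53 of 100, with 11 false calls, and voom 78 and 41 of 100, with 2. Named genes were the 9 members, called genes of each pathway list (at most the 4 with the smallest p), Lpin1, Lpin2, Mogat1, Srebf1, Mlxipl and Pparg, and the 3 genes most alike each member, which are not reported here for Dgat2. Fasn and Acly were named as well. The members and lists were chosen with earlier results of these data known. Other steps ran in Python 3.11.15 (pandas 2.3.3, scipy 1.17.1, matplotlib 3.10.9).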

Additional observations from a re-analysis of the deposited data

Results flagged for a closer look

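Gpat4, a GPAT of the endoplasmic reticulum, had 1 value set apart in Adn-Lpin1-/- HFD mice: mouse 4 had 294 CPM, and the nearest of the others had 258, a gap of 0.797 of the group's range against a critical value of 0.71. This was 1 of 36 groups examined for a single distant mouse, and chance sets apart about 1 in 20.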

How the results depend on the processing

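Of 1386 values of the 45 fold changes under the alternatives, 1285 kept their direction and side of the threshold. Dgat2 on the LFD was called under every alternative (edgeR, DESeq2 or limma adjusted p from 1.50e-05 to 0.0109). The numbers of the mice did not pair them: 6 of 30 pairs of same-numbered mice had a correlation over 0.1 (from -0.415 to 0.281), and 6 correlated best with their own number. With the replicate block, Agpat2 on the HFD had a log2 fold change of 0.43 and lost its call, leaving 1 family member, Gpam and Gpat4 by diet in Adn-Lpin1-/- mice were 0.053 and 0.0092, and all genes called by diet in WT numbered 90.

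Family members called by genotype numbered 2 (LFD) with voom or the pools, the other being Gpat3, and 4 with both, and 4 (HFD) with both, 1 (Agpat1) in a fit of the groups compared, and 1 with the GC trend removed, which was Dgat2, lower, with Agpat1 and Agpat2 lost. By diet in WT they numbered 2 with DESeq2's Wald test, voom, the pools, or voom with the pools, and in Adn-Lpin1-/- mice 2 with the pools, alone or with voom. All genes called numbered 2217 (LFD) with voom, and 1982 and 2126 (HFD) in a fit of the groups compared and with the GC trend removed. All genes called with the pools, and with voom and the pools, numbered 3008 and 4163 by genotype on the LFD, 3760 and 4740 by genotype on the HFD, 687 and 1938 by diet in WT, 958 and 2342 by diet in Adn-Lpin1-/- mice, and 4 and 189 for the interaction. Diet in WT had 400 with DESeq2's Wald test, 670 with voom and 72 in a fit of the groups compared, diet in Adn-Lpin1-/- mice had 577 and 161 with the first and the last, and the interaction had 30 with the Wald test. Each pool repeats the 5 mice of its group, so a group with its pool counts 6 libraries of 5 mice. The cause of the other changes was not tested.

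With each mouse left out in turn, all genes called ranged from 1208 to 1954 on the LFD, from 1477 to 2750 on the HFD, from 55 to 289 by diet in WT and from 123 to 383 by diet in Adn-Lpin1-/- mice, and family members from 1 to 2, 1 to 2, 0 to 1 and 0 to 0. Without WT LFD mouse 5, Gpat3 on the LFD was called (log2 fold change 1.18). In an alternative chosen after seeing the data, members whose groups did not overlap ranged, with each mouse left out, from 1 to 2 by genotype on each diet, 2 to 3 by diet in WT and 0 to 1 by diet in Adn-Lpin1-/- mice, beside 11.1% to 16.3% (LFD), 12.4% to 16.8% (HFD), 4.37% to 8.63% and 4.73% to 7.22% of all tested genes.

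Directions turned for genes near 0. For genotype on the LFD these were Agpat5 (voom 0.026, voom with pools 0.017, GC trend removed 0.11) and Dgat1 (GC trend removed -0.032). For genotype on the HFD they were Agpat3 (voom with pools -0.013, GC trend removed -0.044) and Agpat5 (voom -0.014, no filter -0.010, edgeR's filter -0.026, groups compared only -0.0026, thinned counts -0.036). By diet in Adn-Lpin1-/- mice voom gave Gpam 0.036 and Gpat4 0.0010. For the interaction Agpat5 was -0.039 with voom, -0.0023 with no filter, -0.0020 with edgeR's filter and -0.026 with thinned counts, and Dgat1 was -0.0040 with the pools and -0.057 with voom and the pools. With each mouse left out, the ranges that crossed 0 were -0.059 to 0.036 for Agpat5 on the LFD, and, on the HFD, -0.25 to 0.16 for Gpam, -0.023 to 0.097 for Agpat3 and -0.044 to 0.040 for Agpat5. By diet they were -0.0010 to 0.21 for Gpat4 in WT, and -0.26 to 0.21 for Gpam, -0.087 to 0.10 for Gpat4 and -0.073 to 0.13 for Agpat2 in Adn-Lpin1-/- mice. For the interaction they were -0.50 to 0.062 for Gpat3, -0.23 to 0.0051 for Gpat4, -0.13 to 0.015 for Agpat3 and -0.046 to 0.060 for Agpat5.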

Other observations

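The 4 pooled libraries, each of RNA from the 5 mice of a group, entered the alternative fits only. Of the 36 values of the 9 genes in them, 32 lay inside the range of the single mice of their group.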
